A study of Arabidopsis thaliana with 23 samples.

Results

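The 8 genes described here carry or modulate the jasmonate signal and were followed through 15 peak lists of a ChIP-Seq experiment in Arabidopsis seedlings. They are COI1, the bHLH transcription factor genes MYC2, MYC3, MYC4, JAM1, JAM2 and JAM3, and MED25. They were chosen by name and not by a rule on measured values, but with earlier results of these data known. They make up 8 of the 37887 nuclear loci used here, which also include loci that do not code for protein, such as tRNA genes. WT was the DR5 line in the Col-0 background, and axe1-5 is a mutant of the histone deacetylase gene HDA6. Whole seedlings were 12 days old when they were moved for 3 h to plates with 50 µM methyl jasmonate (MeJA) or to mock plates without it, which gave 4 conditions. H4 tetra-acetylation (H4ac, a mark of active chromatin) was measured in 2 biological replicates per condition, and trimethylation of H3 lysine 27 (H3K27me3, a repressive mark) in 7 libraries, with only replicate 2 of WT MeJA used here. Whole seedlings hold many cell types, so a mark carried by fewer cells and less of it per cell cannot be told apart.

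COI1 encodes the F-box protein that, together with a JAZ repressor, binds the active hormone jasmonoyl-isoleucine and brings JAZ proteins to degradation. The MYC proteins are the activators that JAZ proteins hold back, and MED25 is the Mediator subunit through which MYC2 reaches RNA polymerase II. The JAM proteins are bHLH relatives of the MYC proteins that act as repressors, and MYC and JAM proteins bind the same DNA element, the G-box CACGTG. HDA6 removes acetyl groups from histones and has been found in complexes with COI1 and JAZ proteins.

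The G-box is shown first because both arms of this gene set, activators and repressors, recognise it. In the 1000 bp upstream of the annotated start site, searched on both strands at once since CACGTG is its own reverse complement, 3 of the 8 genes held it (JAM1, JAM2 and MED25). The share over all protein-coding genes was 14.8% (4054 of 27431). The 30-base windows below are from the RefSeq TAIR10.1 genome, read 5′ to 3′ on the strand of the gene, with the G-box in capitals.
JAM1, chr2:19093665-19093694, minus strand, 304 bp upstream of the start site: taggtacatacaCACGTGtgtacacaaaac
JAM2 distal, chr1:108257-108286, plus strand, 672 bp upstream: ctctcctaaatcCACGTGaacttcacgtgc
JAM2 proximal, chr1:108268-108297, plus strand, 661 bp upstream: ccacgtgaacttCACGTGcttttcacgccc
MED25, chr1:8975317-8975346, minus strand, 514 bp upstream: aaaaaaaactacCACGTGaaaagtagttga
Both JAM2 elements stand so close that each printed window also holds the other in lower case. The JAM1 element lay inside an H4ac peak in 7 of 8 lists, the MED25 element in 2, the proximal JAM2 element in 1 and the distal one in 0.

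A relaxed form of the element, CACATG or its reverse complement CATGTG, differs from the G-box by a single base, was counted separately from it and was present upstream of 37.7% of protein-coding genes. It occurred 4 times upstream of JAM1 and 1 time upstream of MYC2, and in no other window of the set. The MYC2 copy is shown because MYC2 is the central factor of the pathway, and its capitals mark the relaxed element.
MYC2, chr1:11801760-11801789, minus strand, 365 bp upstream: taacgttgttagCATGTGtttatcgtgaaa
This copy lay outside the H4ac peaks in all 8 lists. Neither form was found upstream of COI1, MYC3, MYC4 or JAM3 in this window, which says only that these letters are not there.

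Each gene was given, in each list, the highest fold enrichment among the peaks whose summit lay inside the locus. Fold enrichment is the ratio of antibody tags to the level modelled from the input, as computed by the peak caller, and 0 stands for a locus without a listed summit, where the mark may still be present below the peak threshold. The H4ac libraries kept 3235473 to 14717755 tags after removal of duplicates and gave 12065 to 15727 peaks, and both WT mock libraries were the shallowest (5927987 and 3235473 tags). The median fold enrichment over all peaks of a list was 5.9 and 6.83 in WT mock, 9.2 and 9.98 in WT MeJA, 6.12 and 9.38 in axe1-5 mock and 8.32 and 10.7 in axe1-5 MeJA. A higher fold enrichment at a single gene in WT MeJA than in WT mock therefore has to be read against lists in which nearly all genes were higher. For that reason each value is also given relative to its list median. Peak lists show neither the transcript nor the sequence of HDA6 and cannot test the genotype labels.

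All 8 genes carried an H4ac summit in at least 6 of the 8 lists, which 32.5% of all loci did. All 8 code for proteins, and shares over all loci include loci that do not, so that these shares are not matched to the set. In all, 58 of the 64 combinations of gene and list had a summit. A summit in every list was found for 4 of the 8 (MYC3, MYC4, JAM2 and JAM3), against 21.7% of all loci and 42.5% of loci with a summit in at least 1 list. When any peak overlapping the locus was counted, MYC2 and JAM1 joined them and 6 of the 8 had a peak in every list, against 36.1% of all loci. For JAM1 in axe1-5 mock 2 this was a peak of the neighbour SDH4 that reached only the 3′ end of JAM1. COI1 and MED25 each lacked any H4ac peak in 1 axe1-5 MeJA library, COI1 in replicate 2 and MED25 in replicate 1.

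**Figure D1:**
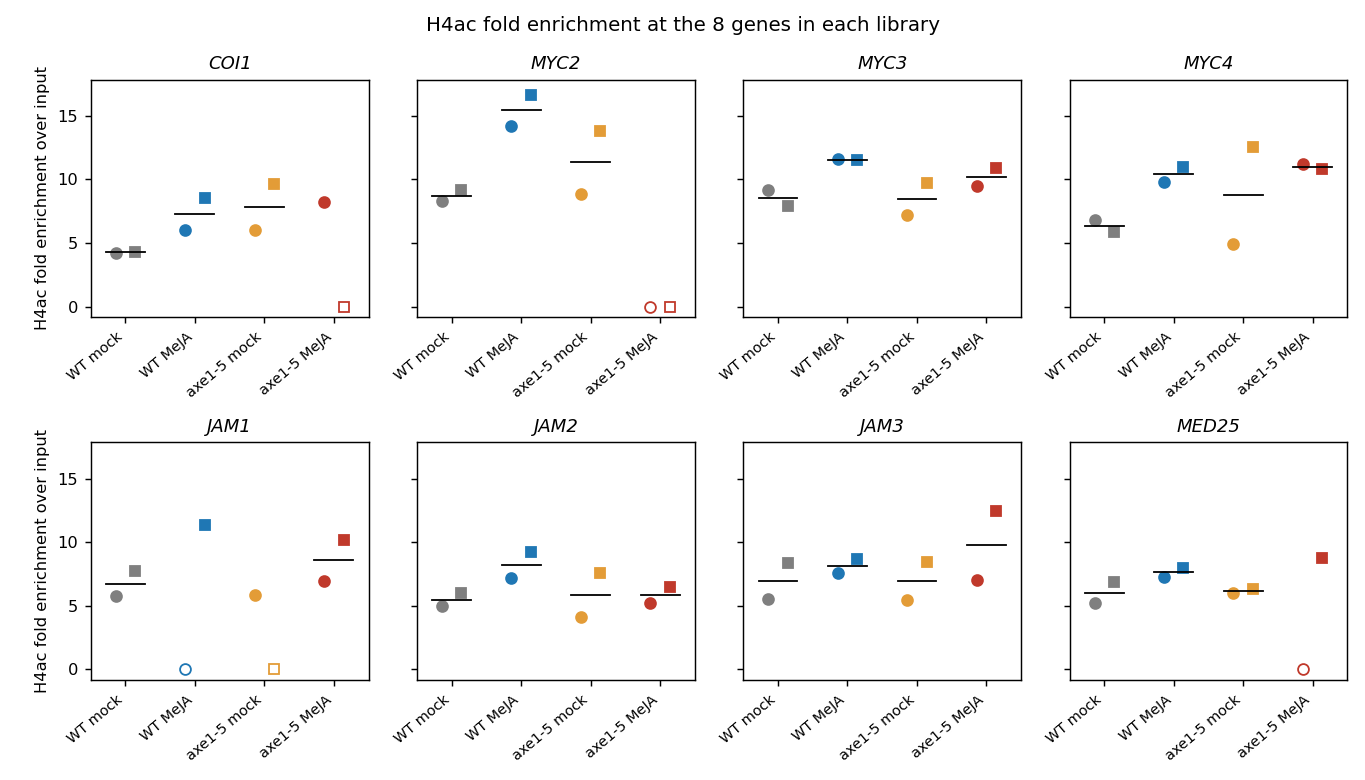
H4ac fold enrichment over input (vertical axis) at each of the 8 genes in the 4 conditions. Circles are replicate 1, squares are replicate 2, black bars are means of groups in which both libraries had a summit, and open symbols at 0 are libraries with no summit in the locus. MYC2 reached the highest value (16.67 in WT MeJA replicate 2, in a peak with a score of 3100.0 and a deposited FDR of 100%). It had no summit in either axe1-5 MeJA library.

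COI1 (AT2G39940, chromosome 2, 16672493 to 16675864, minus strand, 3 exons) had a low H4ac level in WT. Its fold enrichment was 4.25 and 4.29 in WT mock, 6.05 and 8.56 in WT MeJA, 6.0 and 9.61 in axe1-5 mock, and 8.26 and 0 in axe1-5 MeJA. The values of WT mock were below those of both other conditions with 2 summits, without overlap. The same was so for 89.9% of genes against WT MeJA and for 32.6% against axe1-5 mock. Over the list median, COI1 stood at 0.720 and 0.628 in WT mock and at 0.658 and 0.858 in WT MeJA, where the groups overlapped. In axe1-5 mock it stood at 0.980 and 1.025, above both WT mock values, which was also so for 23.0% of genes with a summit in these 4 lists. Among all genes with a summit, COI1 was at percentiles 12.4 and 6.4 in WT mock and at 46.4 and 52.1 in axe1-5 mock. The summits lay 284 to 422 bp downstream of the start site, 4 of them in the 5′ UTR and 3 in the first coding exon. COI1 shares its 3′ end with ISA1 on the other strand, and no COI1 peak reached that end.

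MYC2 (AT1G32640, chromosome 1, 11798119 to 11801407, minus strand, 1 exon), the main transcriptional activator of the pathway, had the highest H4ac fold enrichment of the 8 genes. Its values were 8.28 and 9.18 in WT mock, 14.21 and 16.67 in WT MeJA and 8.87 and 13.84 in axe1-5 mock. Over the list median these were 1.403 and 1.344, 1.545 and 1.670, and 1.449 and 1.475. Both WT MeJA libraries thus stood above both WT mock libraries on either scale, as was so for 89.9% of genes as deposited and 24.8% over the median. The axe1-5 mock libraries stood above WT mock over the median, as was so for 23.0% of genes. MYC2 was at percentiles 81.6 to 95.7 of all genes with a summit in these 6 lists. The deposited FDR of these MYC2 peaks was 4.35% and 9.38% in WT mock and 100% in both WT MeJA lists. In axe1-5 mock it was 5.26% and 55.56%, so that an FDR limit of 5% would keep only the WT mock 1 summit. Their scores were at least 1007.88, and 3100.0 in both WT MeJA lists, so that the FDR of 100% stood at peaks with high scores. In WT MeJA 2 the MED25 peak had a score of 82.1 and an FDR of 0.99%. In both axe1-5 MeJA libraries the value was 0.

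The 0 at MYC2 did not reflect a missing peak. A single peak of 5544 bp in replicate 1 and of 6833 bp in replicate 2 of axe1-5 MeJA covered nearly the whole gene, and its summit lay 4436 and 4500 bp downstream of the MYC2 start site, inside AT1G32610. AT1G32610 encodes a hydroxyproline-rich glycoprotein family protein and is the next protein-coding gene downstream that does not overlap MYC2. In WT mock 2 and axe1-5 mock 1 the same neighbour had a peak and a summit of its own (fold enrichment 9.86 and 9.41), beside a separate MYC2 peak. In WT mock 1, both WT MeJA libraries and axe1-5 mock 2 a joint peak of 5494 to 5650 bp spanned both genes and its summit lay in MYC2. In axe1-5 MeJA the highest point of the joint peak was therefore in the neighbour and in the other joint peaks it was in MYC2. The fold enrichment at that point was 10.88 and 12.02, above the MYC2 values of WT mock and below those of WT MeJA. The joint peaks held 22.90 and 20.05 tags per kb and 1000000 library tags in axe1-5 MeJA, against 28.88 to 40.41 in the other joint peaks. The median over all peaks of a list was also lowest in axe1-5 MeJA (16.71 and 15.48, against 17.38 to 22.23). In the lists with the other joint peaks, joint peak and median were 28.88 and 17.38 in axe1-5 mock 2 and 32.45 and 18.73 in WT mock 1. They were 38.04 and 19.89 in WT MeJA 1 and 40.41 and 19.98 in WT MeJA 2. The medians thus differed less between lists than the joint peaks did, and the cause was not tested. The level at the MYC2 summit position itself cannot be read from these lists.

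The second limit at MYC2 is an overlapping gene. AT1G32630, which encodes a FAM50A-like protein, runs on the plus strand from 11797330 to 11801359 and contains every MYC2 summit, so that ChIP peaks at this position belong to both loci. All 6 summits lay in the coding sequence of MYC2, 738 to 978 bp from its start site. Over all protein-coding genes the median was 327 to 364 bp and the upper quartile 463 to 533 bp, so that MYC2 summits lay farther into the gene than most.

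**Figure D2:**
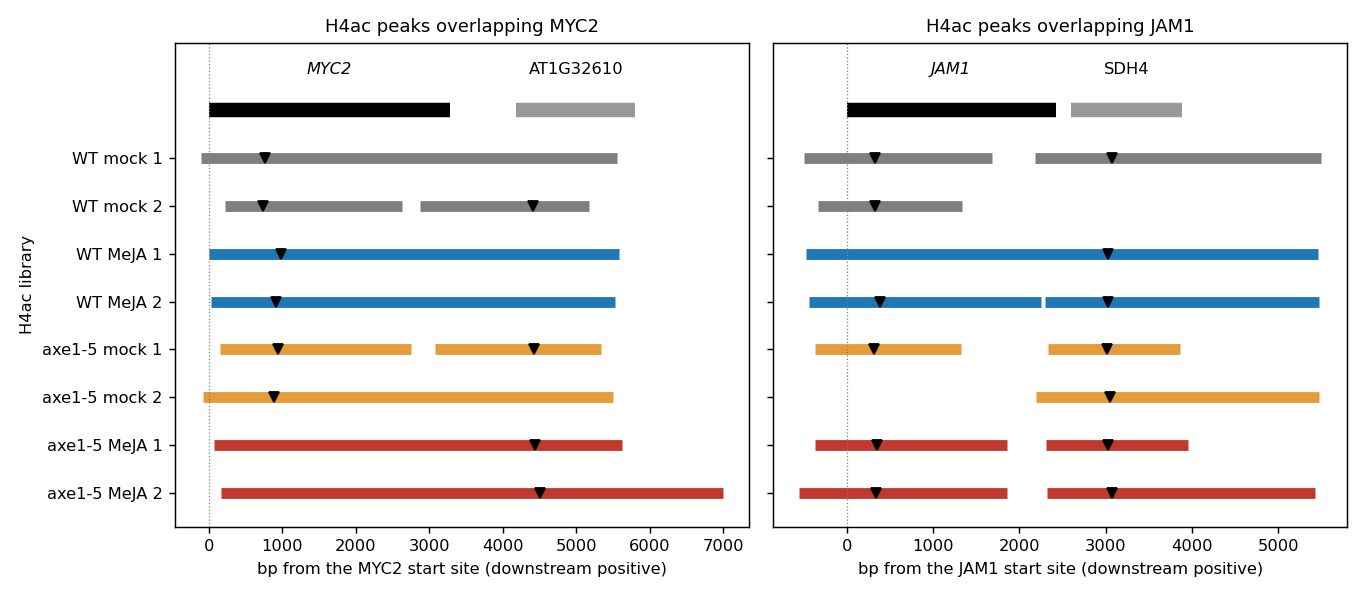
H4ac peaks that overlap MYC2 (left) and JAM1 (right) in each of the 8 libraries, drawn to scale in bp from the start site of the gene, with downstream positive. Coloured bars are peaks, triangles are their summits, the black bar is the gene and the grey bar its downstream neighbour, AT1G32610 or SDH4. In both axe1-5 MeJA libraries the triangle of the MYC2 peak stands in AT1G32610, and in WT MeJA 1 the only triangle of the JAM1 peak stands in SDH4.

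MYC3 (AT5G46760, chromosome 5, 18974022 to 18976590, plus strand, 1 exon), a close paralog of MYC2, had a summit in every list. Its fold enrichment was 9.20 and 7.91 in WT mock, 11.63 and 11.50 in WT MeJA, 7.22 and 9.73 in axe1-5 mock and 9.47 and 10.88 in axe1-5 MeJA. The order of the groups turned once the lists were scaled. Over the median, MYC3 was 1.559 and 1.158 in WT mock, 1.264 and 1.152 in WT MeJA, 1.180 and 1.037 in axe1-5 mock and 1.138 and 1.017 in axe1-5 MeJA. Both axe1-5 MeJA values were then below both WT mock values, as for 23.9% of genes, and below both WT MeJA values, as for 29.0%. All 8 summits lay in the coding exon, 366 to 523 bp from the start site.

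MYC4 (AT4G17880, chromosome 4, 9933326 to 9935685, minus strand, 1 exon), the other MYC2 paralog of the set, was also marked in every list. Its fold enrichment was 6.79 and 5.90 in WT mock, 9.79 and 11.01 in WT MeJA, 4.91 and 12.58 in axe1-5 mock and 11.20 and 10.82 in axe1-5 MeJA. The replicates of axe1-5 mock differed by more than the means of any pair of conditions did, and this remained so over the median (0.802 and 1.341). Both MeJA conditions stood above WT mock as deposited, as for 89.9% of genes in WT MeJA and 74.6% in axe1-5 MeJA. All groups overlapped over the median. The 8 summits lay 390 to 473 bp from the start site, the narrowest range among the genes marked in every list, and all were in the coding exon.

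JAM1 (AT2G46510, listed as AIB in RefSeq; chromosome 2, 19090953 to 19093373, minus strand, 1 exon) is a repressor that counteracts MYC2. Its fold enrichment was 5.77 and 7.69 in WT mock, 0 and 11.38 in WT MeJA, 5.88 and 0 in axe1-5 mock and 6.93 and 10.20 in axe1-5 MeJA. Neither 0 was in a list without a peak at the locus. In WT MeJA 1 a joint peak of 5935 bp covered JAM1 and SDH4, which encodes a subunit of mitochondrial succinate dehydrogenase, and its summit lay in SDH4, 3032 bp from the JAM1 start site. In axe1-5 mock 2 the SDH4 peak reached only the 3′ end of JAM1, and no peak covered its start site. The SDH4 peaks had fold enrichments of 8.74 to 16.48 in the 7 lists that had them touch JAM1, higher than JAM1 in each list where both had a summit. The 6 JAM1 summits all lay in the 5′ UTR, 316 to 384 bp from the start site.

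JAM2 (AT1G01260, chromosome 1, 108946 to 111699, plus strand, 2 exons), a second repressor of this clade, had low fold enrichments. They were 4.94 and 5.99 in WT mock, 7.18 and 9.20 in WT MeJA, 4.15 and 7.61 in axe1-5 mock and 5.23 and 6.47 in axe1-5 MeJA. Over the median, the values were 0.837 and 0.877 in WT mock, 0.780 and 0.922 in WT MeJA, 0.678 and 0.811 in axe1-5 mock and 0.629 and 0.605 in axe1-5 MeJA. Both axe1-5 MeJA values were below all other 6, and there JAM2 was at percentiles 4.9 and 3.0 of the genes with a summit. On this scale axe1-5 MeJA was below WT mock for 23.9% of genes, below WT MeJA for 29.0% and below axe1-5 mock for 23.5%. The share below all of them at once was not computed. JAM2 summits were spread over 322 to 846 bp from the start site and fell in the 5′ UTR in 2 lists, in an intron in 1 and in coding sequence in 5.

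JAM3 (AT4G16430, chromosome 4, 9267260 to 9269178, plus strand, 2 exons), the third repressor, had fold enrichments of 5.54 and 8.36 in WT mock and 7.6 and 8.68 in WT MeJA. In axe1-5 the values were 5.44 and 8.43 in mock and 7.02 and 12.48 in MeJA. JAM3 was the only gene with 2 summits in each of WT mock and WT MeJA whose deposited values overlapped between these conditions. Over the median, WT MeJA (0.826 and 0.870) lay below WT mock (0.939 and 1.224), as for 13.0% of genes. The axe1-5 MeJA replicates stood apart, at 0.844 and 1.166. The summits lay 323 to 547 bp from the start site, 7 of 8 in coding sequence. JAM3 overlaps NAR1 on the other strand at its 3′ end, where no JAM3 peak reached.

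MED25 (AT1G25540, listed as PFT1 in RefSeq; chromosome 1, 8969065 to 8974815, minus strand, 15 exons) had the weakest peaks by score, which is 10 times the negative log10 of the peak p-value. Its scores were 51.79 to 145.39, and those of COI1 87.04 to 229.41, while the MYC2 scores were at least 1007.88. MED25 fold enrichment was 5.20 and 6.86 in WT mock, 7.26 and 7.97 in WT MeJA, 6.01 and 6.28 in axe1-5 mock, and 0 and 8.72 in axe1-5 MeJA. WT MeJA stood above WT mock as deposited, as for 89.9% of genes. It stood below WT mock over the median (0.789 and 0.799 against 0.881 and 1.004), as for 13.0%. The replicates of axe1-5 mock were 0.982 and 0.670 on that scale. Summits lay 341 to 449 bp from the start site, in the first exon.

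**Figure D3:**
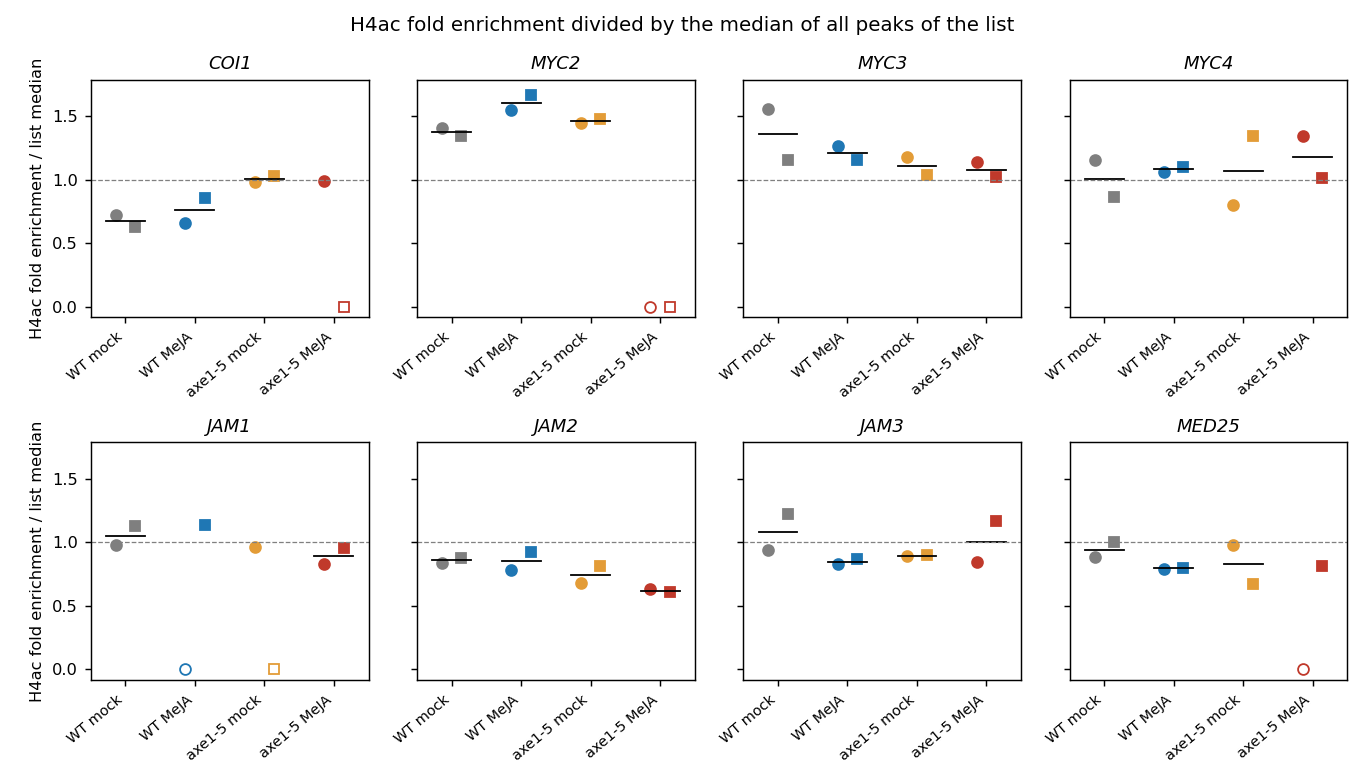
H4ac fold enrichment divided by the median of all peaks of the list (vertical axis) for the 8 genes in the 4 conditions, with symbols as in the plot of fold enrichment and a dashed line at 1, the list median. MYC2 stands above 1 in all 6 lists in which it has a summit, JAM2 stands below 1 in all 8, and COI1 stands at 0.980 and 1.025 in axe1-5 mock against 0.720 and 0.628 in WT mock.

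Ordered by the median of this scaled value over the lists with a summit, MYC2 came first (1.46), before MYC3 (1.16), MYC4 (1.08), JAM1 (0.969), JAM3 (0.894), COI1 (0.858), MED25 (0.815) and JAM2 (0.796). Only the first step exceeded its spread: MYC2 was above MYC3 in 5 of 6 lists, by 0.256 ± 0.235 (mean ± SD of the difference). The other 6 neighbouring pairs differed by -0.043 to 0.103 on average, each less than the SD of its difference. These SDs run over lists of different conditions and are not a spread between replicates. The MYC2 rank leaves out axe1-5 MeJA, where the joint peak had its summit in AT1G32610, and so rests on lists with the summit in MYC2. These are relative enrichments and not amounts of acetylated histone.

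The first question was whether MeJA altered H4ac at these genes in WT. As deposited, both WT MeJA libraries were above both WT mock libraries for 6 of the 7 genes with a summit in all 4 lists (COI1, MYC2, MYC3, MYC4, JAM2 and MED25), but the same was so for 89.9% of all genes with such summits. Over all genes, the median ratio of WT MeJA to WT mock was 1.62 in replicate 1 and 1.52 in replicate 2. The ratios were 1.72 and 1.82 for MYC2 and 1.44 and 1.87 for MYC4. They were 1.26 and 1.45 for MYC3, 1.37 and 1.04 for JAM3 and 1.4 and 1.16 for MED25, below the median ratio in both replicates. Over the list median, MYC2 alone was higher in WT MeJA without overlap (24.8% of all genes were), and JAM3 and MED25 were lower (13.0%). By the study's rule for a gain, at least 2 times the WT mock value or a summit where WT mock had none, in both replicates, 0 of the 8 genes gained H4ac, against 8.81% of genes with a summit in at least 1 list. By the lower of its 2 ratios MYC2 came closest, with the 1.72 and 1.82 given above. Its WT MeJA peaks had scores of 3100.0 and a deposited FDR of 100%. In replicate 2 alone MYC4 (1.87) was closer than MYC2. COI1 reached 2.0 in replicate 2, just under the threshold before rounding, and 1.42 in replicate 1.

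The test used limma on log2 fold enrichment over the 8220 genes with a summit in all 8 lists. Each list was centred on its median over these genes, not over all its peaks, with Benjamini-Hochberg adjustment over all 8220. Of the 8 genes, MYC3, MYC4, JAM2 and JAM3 could be tested. None passed an adjusted p of 0.05 for MeJA in WT, where over all genes 0 passed as higher (0.0%) and 1 as lower (0.0122%) and 704 had an unadjusted p under 0.05. The log2 changes were -0.41 for JAM3 (SE 0.20, adjusted p = 0.577), -0.23 for MYC3 (SE 0.19, adjusted p = 0.791), -0.09 for JAM2 (SE 0.19, adjusted p = 0.941) and 0.05 for MYC4 (SE 0.22, adjusted p = 0.975). Without centring, all 8220 genes shifted by a median of 0.65 and these changes turned positive for JAM3 (0.26), MYC3 (0.44) and JAM2 (0.58), with MYC4 at 0.71 (limma, adjusted p = 0.0621). None of the 4 passed on that scale, where 2445 of the 8220 genes (29.7%) passed as higher and 0 as lower. In a limma fit that left lists without a summit out of a gene's data (11942 genes), added after the values were known, MYC2 changed by 0.17 (SE 0.19, adjusted p = 0.861), MED25 by -0.30 (SE 0.20, adjusted p = 0.702) JAM1 by 0.06 (SE 0.24, adjusted p = 0.965) and COI1 by 0.10 (SE 0.20, adjusted p = 0.93). None of the 8 passed there, while 3 genes did as higher (0.0251%) and 2 as lower (0.0167%). With 2 libraries against 2, an exact test of a single gene cannot go below a two-sided p of 0.33.

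The second question was what loss of HDA6 did under mock conditions. By the rule, 0 of the 8 genes gained H4ac in axe1-5 mock, against 7.37% of genes with a summit. In replicate 2 alone, COI1 (ratio 2.24) and MYC4 (2.13) passed it, against 16.5% of such genes. In replicate 1 the same ratios were 1.41 for COI1 and 0.72 for MYC4, so that the direction was shared for COI1 only. As deposited, COI1 was also the 1 gene of 7 whose axe1-5 mock values both lay above WT mock, as did 32.6% of genes. Over the list median, COI1 and MYC2 were higher in axe1-5 mock than in WT mock without overlap, as 23.0% of genes were, and JAM2 and JAM3 were lower, as 14.1% were. In limma 49 genes passed as higher (0.596%) and 8 as lower (0.0973%), among them none of the 4 tested here. Their log2 changes were -0.33 for MYC3 (SE 0.19, adjusted p = 0.551), -0.31 for JAM3 (SE 0.20, adjusted p = 0.602), -0.26 for JAM2 (SE 0.19, adjusted p = 0.657) and 0.01 for MYC4 (SE 0.22, adjusted p = 0.994). COI1 had the largest change of the set in the limma fit with missing lists, 0.53 (SE 0.20, 95% interval 0.14 to 0.93), with an unadjusted p of 0.00819 and an adjusted p of 0.20. It did not pass, while 0.721% of the genes in that fit passed as higher and 0.134% as lower.

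MeJA in axe1-5 was followed from axe1-5 mock to axe1-5 MeJA. The genes with a summit in all 4 of these lists were MYC3, MYC4, JAM2 and JAM3, and as deposited 0 of the 4 were separated in either direction, against 31.5% of genes higher and 0.449% lower. By the rule 0 of the 8 gained H4ac over axe1-5 mock, against 4.82% of genes. Over the list median JAM2 was lower in axe1-5 MeJA, as 23.5% of genes were. In limma the changes were 0.22 for MYC4 (SE 0.22, adjusted p = 0.786), 0.20 for JAM3 (SE 0.20, adjusted p = 0.789), 0.01 for MYC3 (SE 0.19, adjusted p = 0.996) and -0.22 for JAM2 (SE 0.19, adjusted p = 0.756). None passed, while over all genes 3 passed as higher (0.0365%) and 4 as lower (0.0487%). The difference between the MeJA effects of both genotypes was tested as an interaction, which 0 genes (0.0%) passed in limma in either direction while 666 had an unadjusted p under 0.05. It was 0.61 for JAM3 (SE 0.28, adjusted p = 0.576), 0.24 for MYC3 (SE 0.27, adjusted p = 0.872), 0.17 for MYC4 (SE 0.31, adjusted p = 0.915) and -0.13 for JAM2 (SE 0.27, adjusted p = 0.93).

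The combined change, axe1-5 MeJA against WT mock, shares its WT mock libraries with the comparisons above. By the rule 0 of the 8 genes gained H4ac, against 16.1% of genes with a summit, the highest share of the 3 conditions. Among genes with a ratio in both replicates MYC4 came closest, with 1.65 and 1.83. Over the list median 3 of the 5 genes with a summit in all 4 lists were lower without overlap (MYC3, JAM1 and JAM2), as 23.9% of genes were, and 0 were higher, as 23.6% of genes were. As deposited, MYC3 and MYC4 were higher, as 74.6% of genes were. Against WT MeJA, axe1-5 MeJA was lower at 2 of 4 genes, MYC3 and JAM2, both as deposited (21.2% of genes) and over the list median (29.0%). JAM2 fell short of the limma threshold with a log2 change of -0.48 (SE 0.19, 95% interval -0.86 to -0.09, adjusted p = 0.154), where 261 genes passed as higher (3.18%) and 133 as lower (1.62%). The others were at -0.32 for MYC3 (SE 0.19, adjusted p = 0.379), -0.11 for JAM3 (SE 0.20, adjusted p = 0.811) and 0.23 for MYC4 (SE 0.22, adjusted p = 0.611). In the limma fit with missing lists COI1 was at 0.52 (SE 0.24, adjusted p = 0.211), which rests on 1 axe1-5 MeJA library and did not pass, while 3.45% of genes passed as higher and 2.01% as lower. No value for MYC2 in axe1-5 MeJA could be fitted there, since both its lists had the summit in AT1G32610.

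**Figure D4:**
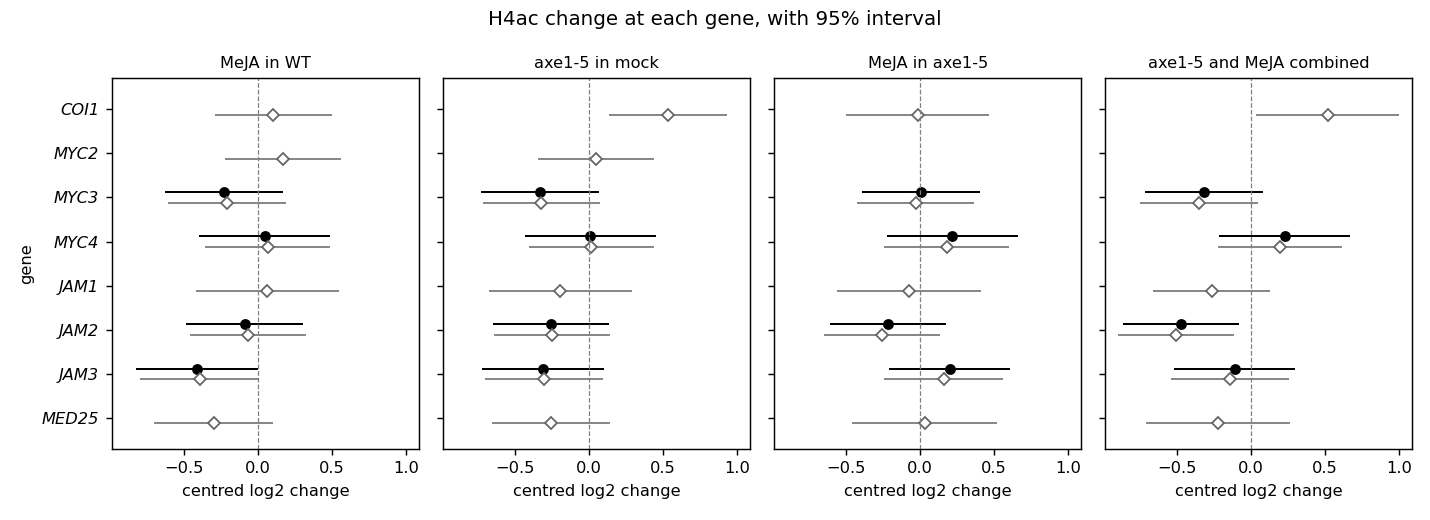
Centred log2 change of H4ac fold enrichment (horizontal axis) with 95% intervals for each gene in 4 comparisons. Filled circles are from the fit on genes with a summit in all 8 lists, open diamonds from the fit that leaves out lists without a summit. Before adjustment the intervals of COI1 for axe1-5 in mock (0.14 to 0.93) and combined (0.04 to 1.00), of JAM2 combined (-0.86 to -0.09) and of JAM3 for MeJA in WT (-0.82 to -0.01) lay to 1 side of 0, and no change passed after adjustment.

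By the reverse of the rule, chosen after the values were seen, MYC2 was the only one of the 8 genes to lose its summit value in both replicates, in axe1-5 MeJA against WT mock (3.67% of genes did) and against axe1-5 mock (3.47%). A fit that sets lists without a summit to 0 gave MYC2 a log2 change of -3.89 for MeJA in axe1-5 (limma, adjusted p = 0.000946), which depends on the position of the summit described above, since a peak covered MYC2 in both lists. With any overlapping peak counted instead, MYC2 was assigned 10.88 and 12.02 in axe1-5 MeJA, against 8.28 and 9.86 in WT mock and 9.41 and 13.84 in axe1-5 mock. Of these, 10.88, 12.02, 9.86 and 9.41 come from summits in AT1G32610, so the values mix both genes and do not give the level at MYC2. With lists centred, the limma change on these mixed values was -0.23 against WT mock (SE 0.18, adjusted p = 0.554) and -0.27 against axe1-5 mock (SE 0.18, adjusted p = 0.679), and neither passed.

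H3K27me3 was not listed at any of the 8 genes. None had a summit or an overlapping peak in any of the 7 lists, against 18.2% of all loci with a summit and 24.8% with an overlapping peak in at least 1. Among the 12302 loci with an H4ac summit in at least 6 lists, where all 8 genes belong, the share with an H3K27me3 summit was 5.74%. The lists differed widely in depth (577986 to 8879066 tags, lowest in WT MeJA) and in peaks (2348 to 9114), so that a weak mark could be missed in the shallow ones.

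The nearest H3K27me3 peaks were at MYC2, upstream of its start site and outside the gene. In WT mock 2 a peak began 1116 bp upstream (fold enrichment 8.34, 50 tags, score 53.27), where the list median was 9.9. In axe1-5 MeJA 2 a peak began 696 bp upstream (fold enrichment 3.79, 88 tags, score 94.01), where the list median was 5.71. In the other 5 lists the nearest peak was at least 3923 bp away, so that this upstream signal appeared in 1 of 2 replicates of both conditions. JAM2 had a constant neighbour: in 6 of 7 lists a peak with its summit in AT1G01250 lay 2638 to 4299 bp upstream, with fold enrichments of 8.20 to 15.93, and none of these reached JAM2. For the other 6 genes the nearest peak was at least 5170 bp away in every list, and for COI1 at least 21070 bp.

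The setting is given by 7 lists of related genes, 66 in all, and 57 of the 66 had an H4ac summit in at least 1 list. Among them are 6 bHLH relatives of the MYC and JAM genes, which are named here because of their values. An H3K27me3 summit was listed for 5 of these 6, against 0 of the 6 MYC and JAM genes and 18.2% of all loci. GL3, a regulator of trichomes and flavonoids, had one in 7 lists (fold enrichment 6.57 to 25.03), MYC5, a JAZ target active in stamens, in 6 (7.99 to 20.60), TT8, a regulator of proanthocyanidins, in 6 (6.99 to 25.03), bHLH14 in 5 (5.87 to 10.45) and MYC1 in 1 (3.85). The highest values of GL3, MYC5 and TT8 were in WT MeJA, where the median over all H3K27me3 peaks was 20.85. These medians ran from 5.71 to 20.85 between lists, and the values given here were not scaled by them. An H4ac summit was listed only for GL3 (5 lists, 5.89 to 10.09) and EGL3 (2 lists, 6.22 and 5.55), and for neither in WT mock. MYC5, which lies on the same chromosome as MYC3, held the nearest H3K27me3 peak to MYC3 in 2 lists, 26255 bp and 26081 bp beyond its end. These genes were listed with results of the series known, and no test was made of the difference. Among the other related genes, an H3K27me3 summit was listed for 0 of 6 TIR1 and AFB genes and 0 of 14 other Mediator genes. It was listed for 0 of 8 corepressor and deacetylase genes and 1 of 5 genes for SCF subunits. For JAZ genes it was 2 of 13, and for jasmonate synthesis and marker genes 7 of 14.

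The TIR1 and AFB genes encode F-box relatives of COI1 that act as auxin receptors. All 6 had H4ac summits, 2 of them in every list, and 0 gained H4ac in any condition, against 8.81% of all genes with a summit in WT MeJA, 7.37% in axe1-5 mock and 16.1% in axe1-5 MeJA. Within that list the MeJA effect in WT ran from -0.51 for TIR1 (SE 0.20, limma, adjusted p = 0.444) to 0.10 for AFB5 (SE 0.19, adjusted p = 0.932). The 5 genes for core subunits of SCF complexes all had summits and 0 gained the mark. Of 14 other Mediator subunit genes, all had summits, 9 in every list, and 1 gained H4ac in WT MeJA (MED5B, 6.05 and 6.24 in WT mock, 12.45 and 15.14 in WT MeJA), where 8.81% of all genes with a summit did. MED5B did not pass limma (log2 change 0.49, SE 0.19, adjusted p = 0.444).

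Genes on which the pathway acts were counted in the same way. Of the 13 JAZ repressor genes 10 had summits, and 2 gained H4ac in WT MeJA, 2 in axe1-5 mock and 1 in axe1-5 MeJA, beside shares of 8.81%, 7.37% and 16.1% over all genes with a summit. JAZ10 had fold enrichments of 3.30 and 3.72 in WT mock and 8.55 and 10.66 in WT MeJA, which did not pass limma (log2 change 0.78, SE 0.19, adjusted p = 0.256). JAZ2, the lowest of the list for MeJA in WT, was at 6.88 and 8.74 in WT mock and at 5.61 and 8.10 in axe1-5 MeJA, and fell in the combined comparison with lists centred (log2 change -0.77, SE 0.20, limma, adjusted p = 0.0183). Of the 8 corepressor and deacetylase genes all had summits and 1 gained H4ac in WT MeJA, while HDA6 itself was at 0.13 (SE 0.20, limma, adjusted p = 0.911) for MeJA in WT. Of the 14 jasmonate synthesis and marker genes, 12 had summits, 4 gained H4ac in WT MeJA, 2 in axe1-5 mock and 6 in axe1-5 MeJA, beside the same shares over all genes. AOC3, an allene oxide cyclase of jasmonate synthesis, rose from 3.81 and 3.53 in WT mock to 7.69 and 8.00 in axe1-5 mock and passed limma there (log2 change 0.79, SE 0.20, adjusted p = 0.041). AOC3 lies in a tandem array with AOC1 and AOC2, so reads could be shared among these copies. It also passed as higher in the combined comparison (0.66, SE 0.20, adjusted p = 0.0434). AOC4 (-0.65, SE 0.19, adjusted p = 0.0376) and AOS (-0.65, SE 0.19, adjusted p = 0.0423), other genes of jasmonate synthesis, passed as lower there in limma, and AOS is named because it passed. These lower calls, JAZ2 included, hold relative to the medians of the fitted genes, since 0 of the 8220 genes passed as lower in this comparison without centring. In total, 9 of the 66 genes (57 with a summit) gained H4ac in WT MeJA, 4 in axe1-5 mock and 8 in axe1-5 MeJA, and no test was made against the signalling genes or against the shares over all genes.

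The median log2 change of the 4 tested genes was -0.16 for MeJA in WT, -0.28 for axe1-5 in mock, 0.10 for MeJA in axe1-5 and -0.22 for the combined change, beside -0.02, -0.01, 0.00 and -0.01 over all 8220 genes. For each of the 4, the gene with the most similar pattern of centred log2 fold enrichment over the 8 lists was sought among the 8219 other genes. It was FTSH10 for MYC3 (Pearson r = 0.942), CIPK5 for MYC4 (r = 0.957), UBQ14 for JAM2 (r = 0.978) and the transcribed pseudogene AT4G08991 for JAM3 (r = 0.936). The points share libraries and inputs, and the highest of so many correlations over 8 lists is a description only.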

How the data were processed

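ChIP libraries and inputs from whole seedlings were sequenced on an Illumina platform. The authors trimmed reads with Trimmomatic 0.36.5, aligned them with Bowtie to TAIR10 and called peaks in each library against an input with MACS 1.4.2 (effective genome size 1.35e+08, p cutoff 1e-05, model fold 5 to 50). Per the file headers, each peak has a count of tags without duplicates, a score (10 times the negative log10 of the p-value), a fold enrichment ratio over input and an FDR in percent, all made by the authors and deposited without further normalization. The 8 inputs had no list. No depth-based interval was computed for a fold enrichment, which rests on tags of both library and input.

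Summits (start plus summit offset) were assigned to 37887 nuclear loci of RefSeq TAIR10.1, whose chromosome lengths hold all peaks. The value of a gene was the highest fold enrichment of summits inside it. The gain rule matched libraries by replicate number. Log2 fold enrichment without pseudocount was fitted with limma 3.58.1 (R 4.3.3) on 8220 genes, with 4 group means and no replicate block, and the fit and the gain rule were tested on simulated data. On centred values, the differences between replicates 1 and 2 had correlations of -0.048 to 0.028 between conditions. Centring removes a shift of a whole list, so this cannot settle whether the numbers pair the samples. The median fold enrichment of an H4ac list was higher in replicate 2 than in replicate 1 in every condition. Python 3.11.15, numpy 2.4.6, pandas 2.3.3 and matplotlib 3.10.9 were used. Alternatives changed the peak filter, overlap rule, threshold, scaling, pseudocount, gene filter, block and libraries.

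All 8 genes were named with every value. Of each other list the genes with the highest and lowest MeJA effect in WT could be named, and for each fitted gene its closest pattern. The genes and lists were chosen with earlier results of these data known.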

Additional observations from a re-analysis of the deposited data

How the results depend on the processing

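None of the genes fitted passed the limma threshold for MeJA in WT or axe1-5 in mock under any alternative run. Leaving out each of the 8 libraries in turn left 0 past it in all 5 contrasts, among MYC3, MYC4, JAM2 and JAM3 and, without 1 axe1-5 MeJA library each, MED25 or COI1. MYC2 and JAM1 were not fitted in these runs. The 3 calls in other contrasts came from the fit that sets lists without a summit to 0, in which 1 gene, MYC2, passed for MeJA in axe1-5 (log2 change -3.89), the combined change (-3.91) and the interaction (-4.02). A fold threshold of 1.5 gave 1 gain in WT MeJA (MYC2, where 31.4% of genes gained) and 1 in axe1-5 MeJA (MYC4, 30.1%). A score of at least 100 gave 1 gain in axe1-5 mock (COI1, whose WT mock peaks score under 100, against 6.65% of genes), and replicate 2 alone gave 2, so that single replicates gave 0 to 2. Leaving out either replicate number raised the genes with a summit in every list from 4 to 5. With a replicate block by replicate number, limma counts for axe1-5 in mock went from 49 to 41 higher. Those for the combined change went from 261 to 225 higher, and MeJA in axe1-5 went from 3 higher and 4 lower to 0. The lowest adjusted p of the 4 genes in that limma fit was 0.158. The gain rule without matching (no replicate block) gave 0 gains in each condition.

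None of the 20 log2 changes of the 4 genes fitted in all lists passed the threshold under 320 alternative estimates (lowest adjusted p 0.0526, for MYC4 combined without centring), and 28 of the 320 changed sign. Without centring, where all genes moved by a median of 0.65, 0.29, 0.27, 0.56 and -0.38 in the 5 contrasts and 2445 genes (29.7%) passed as higher for MeJA in WT and 1737 (21.1%) combined, against 0 and 261 with centring, MYC3 was 0.44 for MeJA in WT, 0.25 combined and -0.16 for the interaction, MYC4 -0.23 for the interaction, JAM2 0.58, 0.047, 0.050 and 0.10 for the first 4 contrasts, and JAM3 0.26 for MeJA in WT and 0.46 combined. With lists without a summit at 0, MYC4 was -0.043 for axe1-5 in mock and MYC3 -0.044 for MeJA in axe1-5, and with those lists missing MYC3 was -0.030 there. Without single libraries, MYC4 ran from -0.18 to 0.26 for MeJA in WT, from -0.39 to 0.41 for axe1-5 in mock, from -0.19 to 0.62 for MeJA in axe1-5, from -0.002 to 0.43 combined and from -0.23 to 0.58 for the interaction. MYC3 ran from -0.057 to 0.068 for MeJA in axe1-5, JAM2 from -0.20 to 0.025 for MeJA in WT and from -0.29 to 0.032 for the interaction, and JAM3 from -0.057 to 0.46 for MeJA in axe1-5 and from -0.37 to 0.15 combined. The cause of these sign changes was not tested beyond the scaling itself. For H4ac, depth was lowest in the WT mock lists, where every 1 of the 8 genes had a summit. The H4ac zeros fell in WT MeJA 1 (8700467 tags), axe1-5 mock 2 (7222121), and axe1-5 MeJA 1 (10569841) and 2 (14717755). Whether depth played a part in them was not tested. For H3K27me3, depth was lowest in the WT MeJA list. A 0 for either mark allows a mark below the peak threshold.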
